A study of Mus musculus with 19 samples.

Results

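Potassium channels of the kidney tubule were followed in RNA from whole mouse kidneys, as a set of 10 genes chosen by name: Kcnj1, Kcnj10, Kcnj15, Kcnj16, Kcnma1, Kcne1, Kcnq1, Kcnk1, Kcnk5 and Kcnk13. All 10 were found by symbol among the 54146 gene identifiers of each library. The study removed Dnmt3a and Dnmt3b, the enzymes that place new DNA methylation, from kidney cells. Each of the 5 RNA libraries came from a B6C3F1/J mouse kidney taken at postnatal day 21, or 3 weeks of age. The 3 control libraries carry floxed Dnmt3a and Dnmt3b (Dnmt3ab f/f) and no Cre label. The 2 KspCre DKO libraries carry the same floxed genes with KspCre (KspCre Dnmt3ab f/f). KspCre uses regulatory DNA of Cdh16 (Ksp-cadherin) and acts in tubule epithelium, so other cells of the organ keep both enzymes. The other 14 of 19 samples are bisulfite libraries and are not analysed here. Whether libraries of 1 group stand for separate animals is not given in the labels, so the spread between them may be partly technical.

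Potassium channels let the tubule recycle, secrete and sense potassium. Apical channels of the thick ascending limb return potassium to the urine so that sodium, potassium and chloride uptake can continue, and in the collecting duct the same channel secretes potassium. Basolateral channels set the membrane voltage that drives chloride exit, and through it the salt transport of the distal convoluted tubule. In the proximal tubule, channels hold the voltage that sodium-coupled uptake of glucose, amino acids and bicarbonate uses.

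The values are TPM, abundances per transcript length scaled to 1 sum per library, so levels can be compared between genes but sequencing depth is unknown. KspCre DKO replicate 2 listed 14710 genes above 0, against 18488 to 20510 in the other 4 libraries, and 31.0% of its TPM lay in mitochondrially encoded genes, against 18.2% to 23.2%. Where leaving out either KspCre DKO library changes the direction or call of a fold change given here, or moves it by over 1.5 times, that value is given too. The targeted genes did not check the labels: the range of Dnmt3a was 13.2 to 19.0 TPM over controls, with 9.98 and 14.2 TPM for KspCre DKO, and that of Dnmt3b was 1.82 to 2.86 TPM, with 2.29 and 3.25 TPM. Directions are therefore those of libraries as labelled. Cdh16, which encodes Ksp-cadherin, stood at 895 to 986 TPM over controls, with 1121 and 906 TPM for KspCre DKO, and the measured markers of each tubule segment, of podocytes and of vessels were above 0 in all 5 libraries.

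DNA methylation falls on CpG dinucleotides, so the letters around the start sites of 4 of these genes are shown: the 3 whose groups did not overlap (Kcnj1, Kcnj10 and Kcnk1) and the one with the highest log2 fold change (Kcnk5). Each run holds 250 bases before and 50 after a RefSeq transcript start (GRCm38.p6), read 5′ to 3′ on the strand of the gene, with every CG in capitals. The genes can have other starts. Those shown for Kcnj10 and Kcnk5 are at the 5′ end of the gene span. The start shown for Kcnj1 (32393985) lies inside its span, which begins at 32372418. That of Kcnk1 (125995102) also lies inside its span, which begins at 125993655.
Kcnj1, chr9:32393735-32394034, plus strand: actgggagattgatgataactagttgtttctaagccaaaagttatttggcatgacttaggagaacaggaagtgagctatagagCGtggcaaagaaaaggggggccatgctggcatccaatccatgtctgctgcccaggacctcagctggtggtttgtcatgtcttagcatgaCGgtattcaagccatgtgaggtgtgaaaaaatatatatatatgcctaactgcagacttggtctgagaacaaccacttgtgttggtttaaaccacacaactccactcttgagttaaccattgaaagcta
Kcnj10, chr1:172340960-172341259, plus strand: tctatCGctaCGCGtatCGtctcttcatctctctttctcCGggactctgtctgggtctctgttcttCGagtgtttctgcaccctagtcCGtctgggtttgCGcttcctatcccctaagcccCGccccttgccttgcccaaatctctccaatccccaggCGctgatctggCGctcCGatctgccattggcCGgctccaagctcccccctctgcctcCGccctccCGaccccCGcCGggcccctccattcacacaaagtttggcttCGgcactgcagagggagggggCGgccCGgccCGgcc
Kcnk1, chr8:125994852-125995151, plus strand: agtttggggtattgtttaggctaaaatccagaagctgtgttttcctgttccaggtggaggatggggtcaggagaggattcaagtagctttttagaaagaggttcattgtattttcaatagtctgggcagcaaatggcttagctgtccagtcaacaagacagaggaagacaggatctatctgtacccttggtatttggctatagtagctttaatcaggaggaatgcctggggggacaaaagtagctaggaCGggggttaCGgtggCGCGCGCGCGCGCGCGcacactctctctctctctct
Kcnk5, chr14:20181733-20182032, minus strand: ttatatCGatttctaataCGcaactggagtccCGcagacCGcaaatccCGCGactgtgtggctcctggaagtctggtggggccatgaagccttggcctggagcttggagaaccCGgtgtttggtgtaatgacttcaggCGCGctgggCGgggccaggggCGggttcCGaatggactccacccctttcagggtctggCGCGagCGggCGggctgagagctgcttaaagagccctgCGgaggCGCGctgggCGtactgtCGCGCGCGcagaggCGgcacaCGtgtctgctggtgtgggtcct

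The 4 windows differ in CpG number. The Kcnj1 window holds 2 CpG and that of Kcnk1 10, most of them in a single CG repeat shortly after the start, while Kcnj10 has 21 and Kcnk5 26. Of 32851 such windows in the RefSeq table, the median held 7, 85.9% held at least as many as Kcnj1, and 24.8% and 16.9% at least as many as Kcnj10 and Kcnk5. Windows were given for 8 of the 10 genes. Kcnma1 had 36 CpG (6.23% of windows hold as many), Kcnk13 had 9, Kcnj15 had 2, and the 4 starts of Kcnj16 had 1 to 8. Poor and rich windows both occur among the 3 genes that were lowest relative to controls. The letters GTTAAT, the core of the site of the tubule factor HNF1 (searched on both strands), occurred in 1 of these 11 windows, the first of Kcnj16, against 7.1% of all windows. These counts describe the sequence, since methylation itself is not analysed here.

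**Figure D1:**
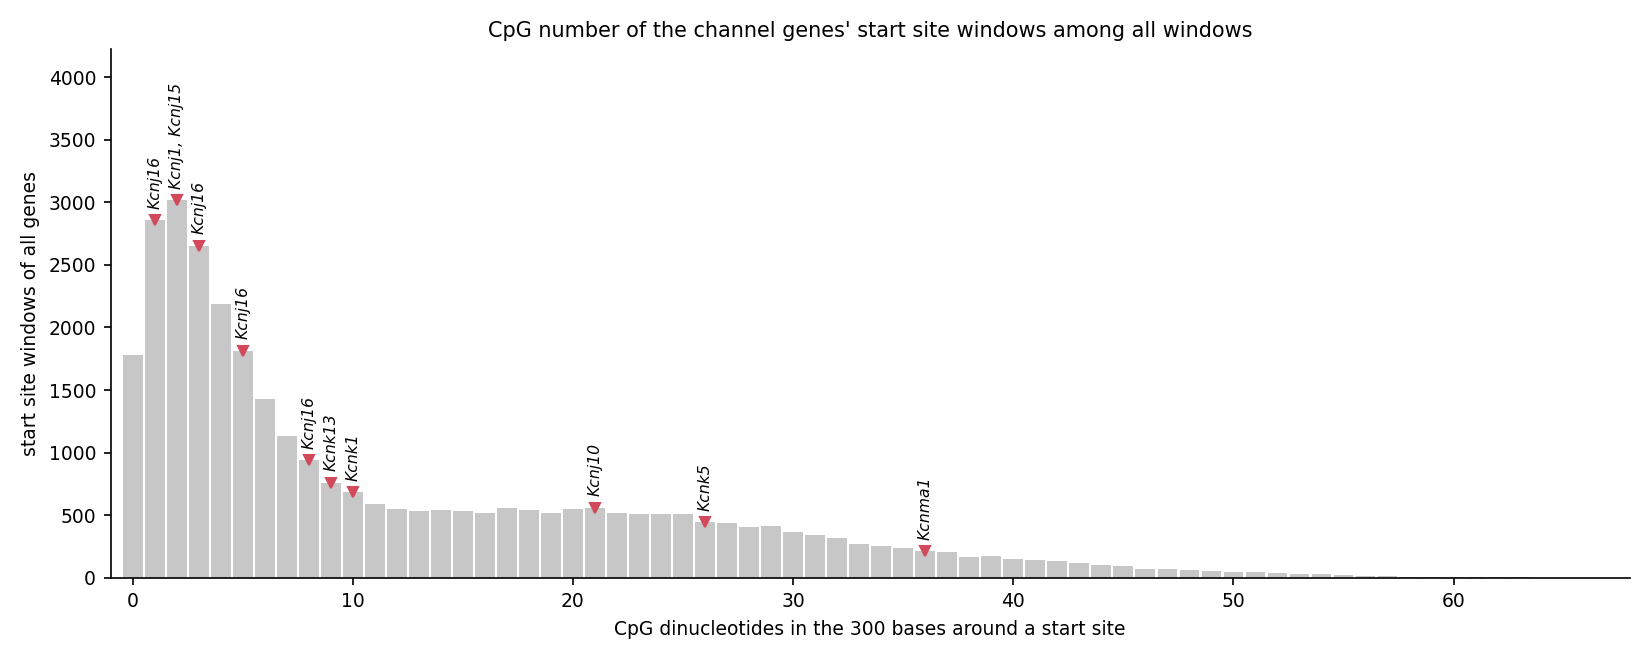
Number of start site windows of 300 bases (y axis) by CpG number (x axis) for all genes in the table, with red triangles at the windows of the named channel genes. Kcnj1, Kcnj15 and all but 1 of the Kcnj16 windows lie below the median of 7, whereas Kcnj10, Kcnk5 and Kcnma1 hold 21 to 36.

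The comparison of KspCre DKO with control kidneys asked which channel genes differ between the genotypes as labelled. How far both enzymes were lost in each tubule segment is not shown by this RNA. No channel gene passed the threshold (limma on log2(TPM + 1), Benjamini-Hochberg adjusted p below 0.05). Of the 10 genes, 8 had a mean of at least 1 TPM and were tested among 13963 genes. Kcnj1, Kcnj10 and Kcnk1 were lower in both KspCre DKO libraries than in each control, the other 5 overlapped, and Kcnma1 and Kcnk13 lay near 0. At an unadjusted p below 0.05 the count was 3 lower and 0 higher. Over all tested genes 14 were called higher and 9 lower, which is 0.1% and 0.0645% and together 0.165%, while 6.15% were lower at an unadjusted p below 0.05 and 15.6% were lower without overlap of the groups. Of these calls, 24 were higher and 7 lower under scaling by median of ratios, 35 and 7 under quantile normalization, and 26 and 11 for TPM rescaled without mitochondrially encoded genes. The median log2 fold change of the 8 tested channel genes was −0.38, beside −0.14 for all tested genes. Under scaling by median of ratios these medians were −0.28 and −0.04. They were −0.5 and −0.39 when KspCre DKO replicate 1 was left out, and −0.18 and 0.13 when replicate 2 was. Of the 8 genes 6 had a lower log2 fold change, against 61.7% of all tested genes. In whole kidney, fewer cells of a type and less RNA per cell cannot be told apart.

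**Figure D2:**
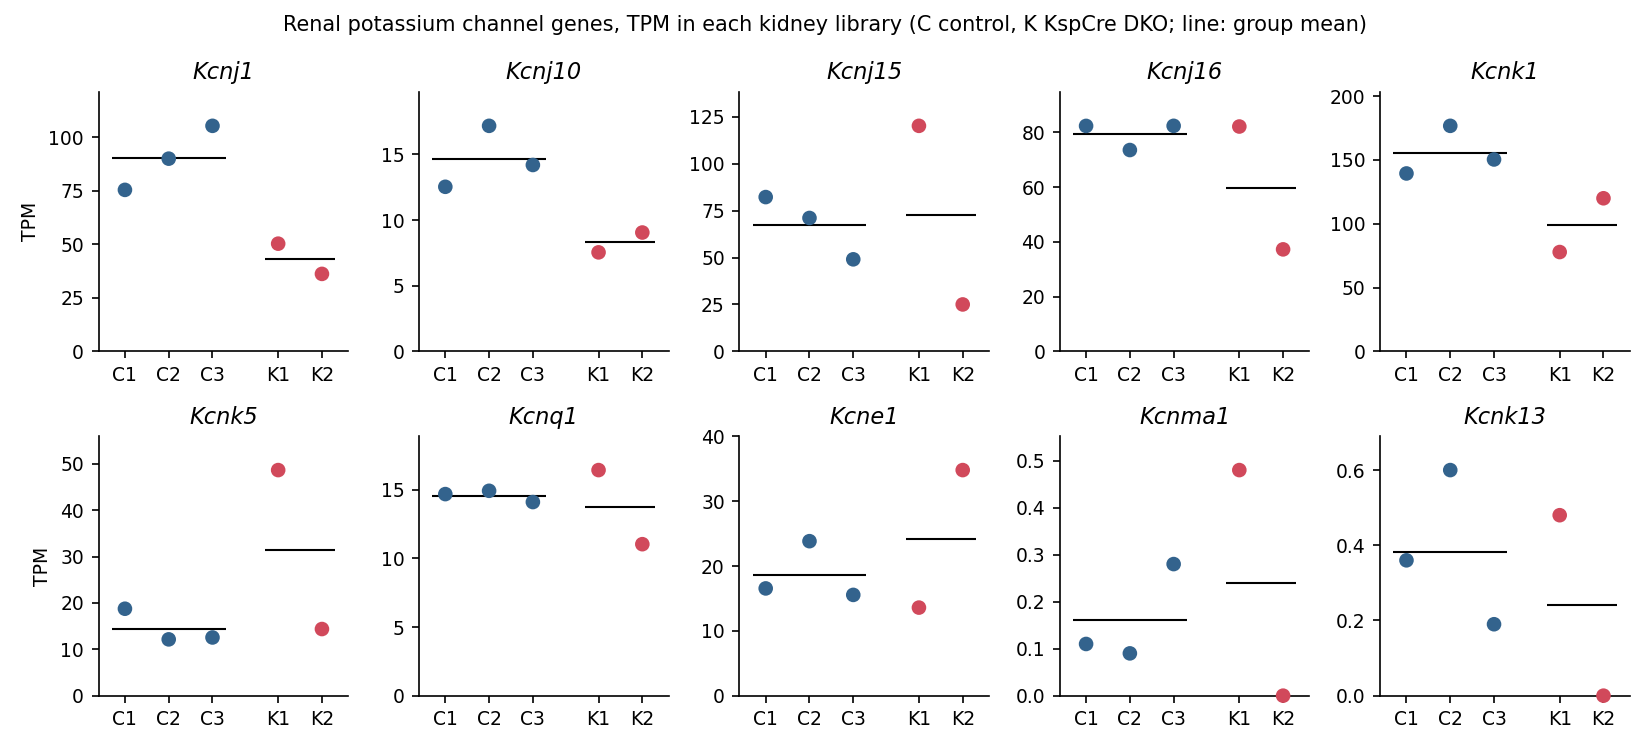
TPM (y axis, from 0) of each of the 10 channel genes in control libraries (C1 to C3, blue) and KspCre DKO libraries (K1 and K2, red), with a line at each group mean. Kcnj1, Kcnj10 and Kcnk1 do not overlap between groups, and Kcnj15, Kcnk5 and Kcne1 differ more between K1 and K2 than among the controls.

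Kcnj1 (ENSMUSG00000041248.9, chromosome 9, 32372418 to 32399197) encodes ROMK, the apical potassium channel of the thick ascending limb and of the distal nephron. It stood at 75.4, 89.9 and 105 TPM over controls 1 to 3, and 50.3 and 36.2 TPM in KspCre DKO. Both KspCre DKO values lay below the lowest control, and KspCre DKO replicate 2 was the lower of the pair. The log2 fold change was −1.05 ± 0.29 (SE; 95% interval −1.70 to −0.39; limma adjusted p = 0.252). This is the smallest p among the channel genes, and it did not pass. Leaving out KspCre DKO replicate 2 gave −0.82, beside a median of 0.13 for all tested genes. Leaving out replicate 1 gave −1.28, beside a median of −0.39.

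Kcnk1 (ENSMUSG00000033998.9, chromosome 8, 125993655 to 126030685), a K2P leak channel known as TWIK, was the most abundant channel gene in each control and in KspCre DKO replicate 2. Its TPM was 139, 177 and 150 in the controls and 77.8 and 120 in the KspCre DKO libraries. The groups did not overlap, and KspCre DKO replicate 1 was the lowest library. The log2 fold change was −0.67 ± 0.28 (SE; 95% interval −1.32 to −0.03; limma adjusted p = 0.464), −0.98 when KspCre DKO replicate 2 was left out and −0.36 when replicate 1 was.

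Genes of transport proteins of the thick ascending limb and of principal cells were set beside Kcnj1 and Kcnk1. Slc12a1, the furosemide-sensitive sodium-potassium-chloride cotransporter that works beside ROMK in the thick ascending limb, had 394, 562 and 519 TPM over controls 1 to 3, and 191 and 61.3 TPM in KspCre DKO. Both KspCre DKO libraries lay below each control. Slc12a1 did not pass, at −2.15 ± 0.44 on the log2 scale (SE; limma adjusted p = 0.141). The size of its fold change, though not its direction, depended strongly on single libraries. Leaving out KspCre DKO replicate 2 gave −1.34, and leaving out replicate 1 gave −2.97. Each of these fits holds 1 KspCre DKO library. The median of all tested genes in them was 0.13 and −0.39. The log2 ratio of Kcnj1 to Slc12a1 was −2.37, −2.63 and −2.29 in the controls and −1.91 and −0.74 in the KspCre DKO libraries, so Slc12a1 was lower relative to Kcnj1 in both. Aqp2, the water channel of principal cells, which also carry Kcnj1, had 347, 240 and 426 TPM over controls 1 to 3, and 1414 and 1218 TPM in KspCre DKO, both above each control. It stood at 2.0 ± 0.29 on the log2 scale (SE; limma adjusted p = 0.0512), just short of the threshold, and passed it under 8 of 16 alternative settings. The log2 ratio of Kcnj1 to Aqp2 was −2.19, −1.41 and −2.01 against −4.79 and −5.04, and that of Kcnk1 to Aqp2 was −1.31, −0.44 and −1.50 against −4.17 and −3.33. Neither ratio overlapped between groups, which follows from Kcnj1 and Kcnk1 lying below and Aqp2 above each control in both KspCre DKO libraries. The ratios are given as values and were not tested.

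Segment markers were read beside these values. All 10 thick ascending limb markers had lower log2 fold changes, with a median of −1.34, and their summed level was 2275 to 2406 TPM over controls 1 to 3, and 1163 and 644 TPM in KspCre DKO. None of the 10 was at 0 in any library and none was called. Without overlap of groups, 8 of the 10 were lower, beside 15.6% of all tested genes. Principal cell markers summed to 1102 to 1203 TPM against 2616 and 2581 TPM, with 6 of 10 higher and a median of 0.76. Aqp2 and Fxyd4 made up most of this difference in summed level. The other 8 markers summed to 478, 623 and 480.2 TPM against 662 and 608 TPM, which overlap. Gene by gene, 6 of the 10 markers were higher without overlap and 2 lower, beside 10.5% and 15.6% of all tested genes. Elf5 was at 17.2, 8.29 and 6.85 TPM against 70.75 and 53.6 TPM, and Aqp3 at 97.9, 79.7 and 82.3 TPM against 171 and 154 TPM. Of 10 intercalated cell markers, 9 had lower log2 fold changes, with a median of −0.505 and none called. Their summed level was 432, 576.5 and 475 TPM against 435 and 306 TPM. Whole kidney RNA does not show which cells carry Kcnk1. The part of these segment levels in the Kcnj1 and Kcnk1 values was not tested.

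**Figure D3:**
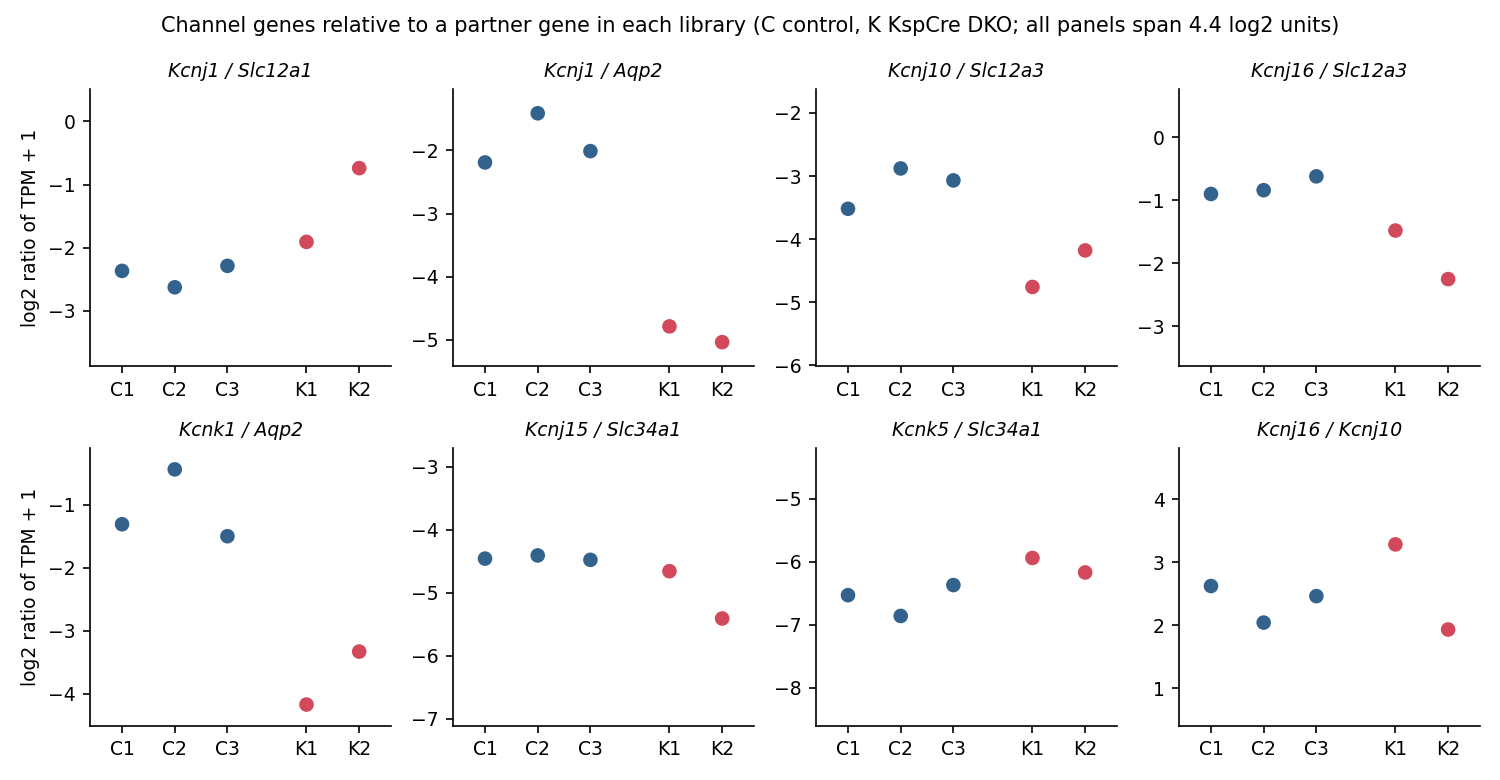
Log2 ratio of TPM + 1 (y axis) of a channel gene to a partner gene in each library (control C1 to C3, blue; KspCre DKO K1 and K2, red), all panels on a span of equal length. The ratio of Kcnj1 to Slc12a1 is higher in both KspCre DKO libraries than in any control, the ratios to Aqp2 and to Slc12a3 are lower, and that of Kcnj16 to Kcnj10 overlaps.

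The basolateral inward rectifiers did not share 1 pattern. Kcnj10 (ENSMUSG00000044708.5, chromosome 1, 172341210 to 172374085) encodes the pore subunit of the basolateral channel of the distal convoluted tubule, connecting tubule and collecting duct. It stood at 12.5, 17.2 and 14.2 TPM over controls 1 to 3, and 7.54 and 9.05 TPM in KspCre DKO. Both KspCre DKO libraries were below each control. The log2 fold change was −0.74 ± 0.30 (SE; 95% interval −1.43 to −0.06; limma adjusted p = 0.439), and it was −0.86 and −0.63 when KspCre DKO replicate 2 and replicate 1 were left out.

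Kcnj16 (ENSMUSG00000051497.15, chromosome 11, 110968033 to 111027968) encodes the partner subunit that assembles with the products of Kcnj10 and Kcnj15. Its TPM was 82.3, 73.5 and 82.3 in the controls and 82.1 and 37.3 in the KspCre DKO libraries. KspCre DKO replicate 1 lay within the controls and replicate 2 below them. The log2 fold change of −0.51 ± 0.35 (SE; 95% interval −1.31 to 0.29; limma adjusted p = 0.655) became 0.05 without KspCre DKO replicate 2 and −1.07 when replicate 1 was left out.

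Kcnj15 (ENSMUSG00000062609.14, chromosome 16, 95257558 to 95300260), an inward rectifier of the basolateral membrane found in proximal tubule, was at 82.2, 71.1 and 49.0 TPM in the controls. In the KspCre DKO libraries it was at 120 and 25.01 TPM, so 1 library lay above all controls and the other below. The log2 fold change of −0.25 ± 0.58 (SE; 95% interval −1.58 to 1.07; limma adjusted p = 0.906) turned to 0.86 without KspCre DKO replicate 2 and was −1.36 when replicate 1 was left out. The gap between both KspCre DKO libraries was 2.22 log2 units, and 2.78% of tested genes had as large a gap.

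The makeup of the possible Kcnj16 partners followed these values. Kcnj10 made up 13.2%, 19.5% and 22.4% of the summed Kcnj10 and Kcnj15 TPM in the controls and 5.91% and 26.6% in the KspCre DKO libraries. TPM of Kcnj16 per summed partner TPM was 0.869, 0.833 and 1.3 against 0.643 and 1.09. The KspCre DKO libraries bracket the controls in the first measure, and replicate 2 lies within them in the second.

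Slc12a3, the thiazide-sensitive cotransporter of the distal convoluted tubule whose activity the Kcnj10 and Kcnj16 channel controls, stood at 155, 133 and 127 TPM over controls 1 to 3, and 231 and 181 TPM in KspCre DKO. Its log2 fold change was 0.57 ± 0.25 (SE; limma adjusted p = 0.498), opposite in sign to that of Kcnj10. The log2 ratio of Kcnj10 to Slc12a3 was −3.52, −2.88 and −3.07 against −4.76 and −4.18, and that of Kcnj16 to Slc12a3 was −0.90, −0.84 and −0.62 against −1.48 and −2.25. Both ratios were lower in the KspCre DKO libraries without overlap. For Kcnj10 this follows from the values above, with Kcnj10 below and Slc12a3 above each control in both KspCre DKO libraries. Kcnj16 lay within the controls in KspCre DKO replicate 1, so its lower ratio there follows from Slc12a3. Of 8 distal convoluted and connecting tubule markers measured, 6 had lower log2 fold changes, with a median of −0.47 and summed levels of 3904 to 4584 TPM against 2161 and 2742 TPM. S100g, a calcium-binding protein gene, made up most of this sum, and the other 7 markers summed to 614, 598 and 526 TPM against 527 and 495 TPM. Their part in the Kcnj10 values was not tested.

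Kcnk5 (ENSMUSG00000023243.9, chromosome 14, 20140057 to 20181782), the alkali-sensitive K2P channel TASK of the proximal tubule, where its loss impairs bicarbonate uptake, had the highest log2 fold change of the channel genes. It was at 18.8, 12.2 and 12.6 TPM over controls 1 to 3, and 48.7 and 14.4 TPM in KspCre DKO. Only KspCre DKO replicate 1 lay above the controls. The log2 fold change of 0.86 ± 0.49 (SE; 95% interval −0.25 to 1.97; limma adjusted p = 0.589) rested on that library: it was 0.02 without it and 1.71 when replicate 2 was left out.

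Of 11 proximal tubule markers measured, 10 were highest in KspCre DKO replicate 1, all but Lrp2. Slc34a1, the sodium-phosphate cotransporter, was at 1831, 1527 and 1119 TPM over controls 1 to 3, and 3053 and 1104 TPM in KspCre DKO. These 11 markers summed to 4191 to 5869 TPM in the controls, 8344 TPM in KspCre DKO replicate 1 and 3335 TPM in replicate 2, with none at 0. Their median log2 fold change was 0.03, with 6 higher and 5 lower. Relative to Slc34a1, Kcnj15 was lower in both KspCre DKO libraries: the log2 ratio was −4.46, −4.41 and −4.48 in the controls and −4.66 and −5.41 in the KspCre DKO libraries. Kcnk5 had log2 ratios to Slc34a1 of −6.53, −6.86 and −6.37 against −5.94 and −6.17, and to the basolateral bicarbonate transporter gene Slc4a4 of 0.04, 0.20 and 0.38 against 0.39 and 1.27. The part of proximal tubule content in the Kcnj15 and Kcnk5 values was not tested.

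**Figure D4:**
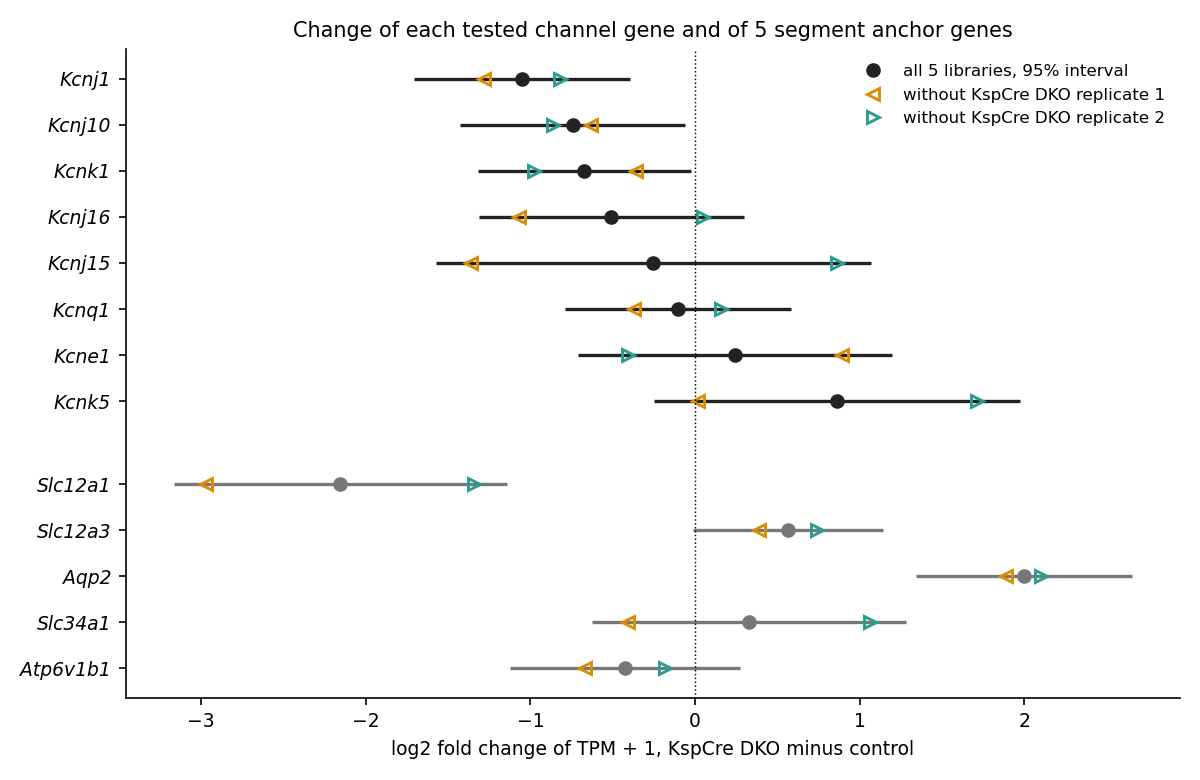
Log2 fold change (x axis, KspCre DKO minus control) of the 8 tested channel genes in black and 5 segment anchor genes in grey, with 95% intervals from limma, and open triangles for refits without each KspCre DKO library. The triangles stay on 1 side of 0 for Kcnj1, Kcnj10, Kcnk1 and Kcnk5, although at 0.02 for Kcnk5 without replicate 1, and lie on both sides for Kcnj16, Kcnj15, Kcnq1 and Kcne1.

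Kcnq1 and Kcne1 encode the pore and the small accessory subunit of a slow voltage-gated channel, which in kidney lies in the proximal tubule. Kcnq1 (ENSMUSG00000009545.14, chromosome 7, 143106877 to 143427050) was the least variable of the tested channel genes among controls, at 14.7, 14.9 and 14.1 TPM, and stood at 16.4 and 11.04 TPM in the KspCre DKO libraries, 1 on either side. Its log2 fold change was −0.10 ± 0.30 (SE; 95% interval −0.79 to 0.58; limma adjusted p = 0.927), and it turned to 0.16 when KspCre DKO replicate 2 was left out and was −0.37 when replicate 1 was. Kcne1 (ENSMUSG00000039639.7, chromosome 16, 92346001 to 92359468) was at 16.6, 23.8 and 15.6 TPM against 13.6 and 34.8 TPM, again 1 library below and 1 above the controls. Its log2 fold change was 0.24 ± 0.42 (SE; 95% interval −0.71 to 1.20; limma adjusted p = 0.870) and turned to −0.41 when KspCre DKO replicate 2 was left out, against 0.89 when replicate 1 was. The subunits went opposite ways in each KspCre DKO library, and the log2 ratio of Kcnq1 to Kcne1 was 0.26 in replicate 1 and −1.57 in replicate 2, against −0.16, −0.64 and −0.13 in the controls.

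Kcnma1 (ENSMUSG00000063142.15, chromosome 14, 23292288 to 24005110), the pore of the BK channel that secretes potassium when tubule flow is high, had 0.11, 0.09 and 0.28 TPM over controls 1 to 3, and 0.48 TPM in KspCre DKO replicate 1. Kcnk13 (ENSMUSG00000045404.16, chromosome 12, 99963149 to 100062682), a K2P channel known as THIK, was at 0.36, 0.60 and 0.19 TPM and at 0.48 TPM. Both are listed at 0 in KspCre DKO replicate 2, which lists the fewest genes. These values were below the 1 TPM filter, and no change was tested.

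By level, the controls placed Kcnk1 highest at 155 ± 19.2 TPM (SD, n = 3), and its range did not meet that of any other channel gene. Kcnj1 at 90.2 ± 14.9, Kcnj16 at 79.4 ± 5.09 and Kcnj15 at 67.4 ± 16.9 TPM came next and overlapped one another. Kcne1 at 18.6 ± 4.53, Kcnj10 at 14.6 ± 2.35, Kcnq1 at 14.6 ± 0.42 and Kcnk5 at 14.5 ± 3.70 TPM lay below all of those. Their ranges met, except that each control value of Kcne1 was above each of Kcnq1. In KspCre DKO replicate 1 Kcnj15 had rank 1 and Kcnk1 rank 3, and in replicate 2 Kcne1 had rank 4 and Kcnj15 rank 5. The 10 genes held 79.5% to 82.2% of the summed TPM of all measured potassium channel genes in the controls, and 75.8% and 70.9% in the KspCre DKO libraries.

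Likeness was measured as the root mean square difference of log2 profiles over the 5 libraries, each centred on its control mean. The profiles of Kcnj10 and Kcnk1 were 0.132 log2 units apart, closer than Kcnj1 to its nearest channel gene, Kcnj10 (0.332). Among protein-coding genes the nearest to Kcnj10 was Chka, a choline kinase, at 0.0342, which was also among the 3 nearest to Kcnk1 (0.106). Grk3, a receptor kinase, was nearest to Kcnk1 (0.0817) and Nid2, a basement membrane protein, to Kcnj1 (0.0754). Of the 13963 tested genes, only protein-coding genes without a Gm or Rik model name were searched, over few libraries. Likeness was read for the 3 channel genes of smallest p, all lower, so part of their closeness follows from that choice.

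Among the other potassium channel and accessory genes, 82 of 90 listed were measured and 23 tested. None was called, 9 had higher and 14 (60.9%) lower log2 fold changes, beside 61.7% lower among all tested genes, and the median was −0.19. At an unadjusted p below 0.05, 2 were higher and 0 lower, beside 4.16% and 6.15% of all tested genes. Without overlap of groups, 6 were higher and 3 lower, beside 10.5% and 15.6%.

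The 2 higher genes were Lrrc26 and Kcnj13. Lrrc26 encodes an accessory subunit that lets BK channels open at lower voltage, and was at 1.98, 0 and 0.64 TPM over controls 1 to 3, and 8.13 and 6.78 TPM in KspCre DKO. On the log2 scale it stood at 2.31 ± 0.51 (SE; limma adjusted p = 0.167), while Kcnma1, the pore it serves, stayed below 1 TPM in each library. Kcnj13, an inward rectifier of small conductance, was at 1.13, 1.46 and 0.85 TPM against 3.19 and 6.27 TPM (log2 fold change 1.37 ± 0.41 SE, limma adjusted p = 0.306). Both genes were higher in each KspCre DKO library than in every control. Kcnj8, the inward rectifier of vascular ATP-sensitive channels, was at 2.82, 2.63 and 4.08 TPM against 1.77 and 0.94 TPM (limma adjusted p = 0.520). Measured smooth muscle and pericyte markers, 4 of 4 lower, summed to 48.9 to 135 TPM against 41.3 and 45.7 TPM, and their part in the Kcnj8 values was not tested.

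Kcnt1, a sodium-activated channel of the Slo family, was the most abundant of these genes, at 44.0, 59.5 and 27.5 TPM against 60.6 and 62.2 TPM (log2 fold change 0.55 ± 0.35 SE, limma adjusted p = 0.626). Kcnn1, a calcium-activated channel of small conductance, was at 2.32, 3.89 and 3.10 against 2.41 and 0.26 TPM, and Kcnk2, the stretch-sensitive K2P channel TREK, at 1.85, 2.55 and 1.42 against 4.05 and 2.61 TPM. Of the voltage-gated genes and their accessory subunits, 10 of 41 measured were tested, and 8 of them had lower log2 fold changes with a median of −0.42. Kcnip3 was at 4.99, 3.42 and 5.90 against 2.80 and 2.84 TPM, lower in both libraries without overlap.

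**Figure D5:**
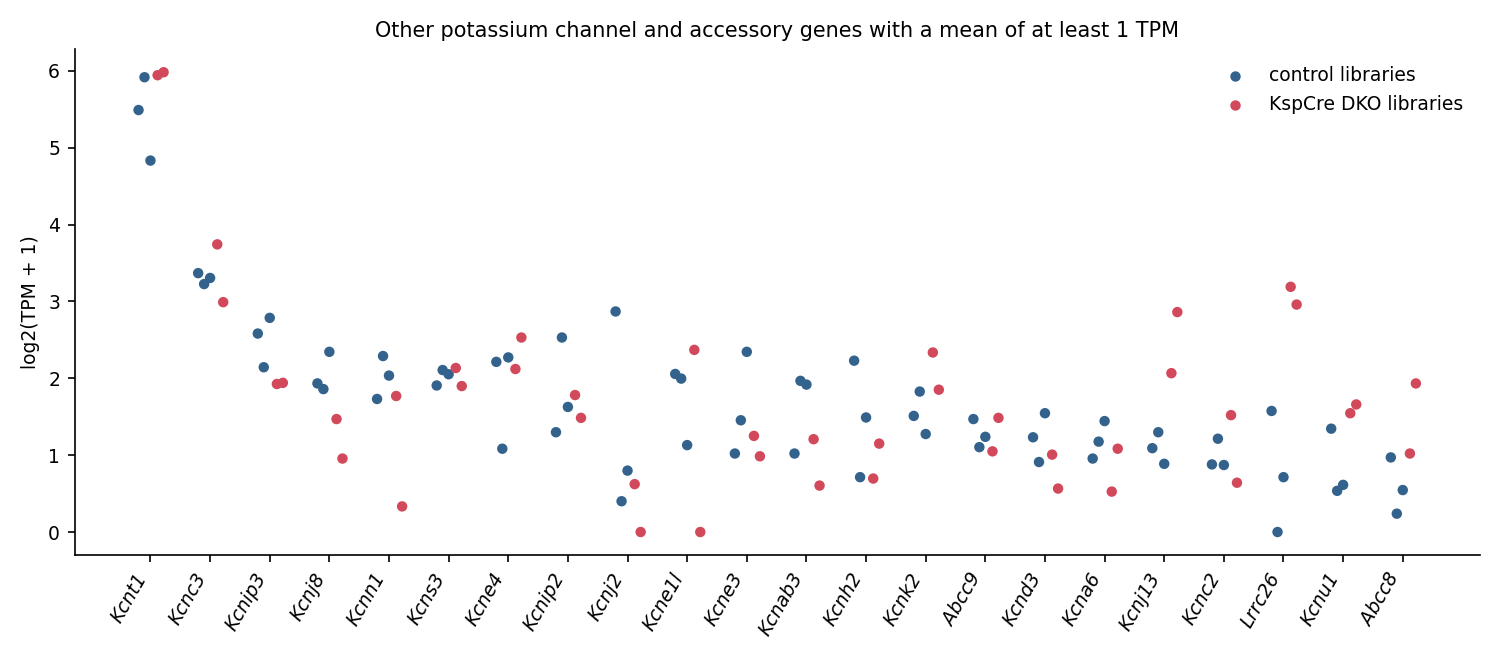
Log2(TPM + 1) (y axis) of all but 1 of the 23 tested potassium channel and accessory genes outside the named set, ordered by control mean, with control libraries in blue and KspCre DKO libraries in red. Kcnt1 stands far above the rest, and Lrrc26 and Kcnj13 have both red points above all blue ones.

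Transport partners and regulators of potassium secretion were read from lists of 18 and 15 genes. Of 17 transporters tested, 12 (70.6%) had lower and 5 higher log2 fold changes, near the 61.7% lower among all tested genes, with a median of −0.25 and none called. Without overlap of groups, 9 of the 17 were lower and 2 higher, beside 15.6% and 10.5% of all tested genes. Beside Slc12a1 and Slc12a3, Fxyd4, a sodium pump regulator of the collecting duct, was at 277, 340 and 228 TPM against 541 and 755 TPM (log2 fold change 1.20 ± 0.28 SE, limma adjusted p = 0.178). Atp4a, the catalytic subunit of a potassium-reclaiming proton pump, was at 11.7, 6.31 and 7.72 TPM against 4.61 and 2.09 TPM (log2 fold change −1.16 ± 0.40 SE, limma adjusted p = 0.370, and −0.73 without KspCre DKO replicate 2). Neither gene overlapped between groups.

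Of 13 regulators tested, 10 (76.9%) had lower and 3 higher log2 fold changes, with a median of −0.20 and none called. Sgk1, the aldosterone-induced kinase that raises channel density at the apical membrane, was at 119, 81.1 and 74.8 TPM against 352 and 151 TPM (log2 fold change 1.35 ± 0.39 SE, limma adjusted p = 0.282, and 0.74 without KspCre DKO replicate 1). Wnk1, a chloride-sensing kinase whose forms control ROMK uptake from the membrane, was at 218, 163 and 170 TPM against 117 and 121 TPM (log2 fold change −0.61 ± 0.25 SE, limma adjusted p = 0.456). Wnk4, its relative in the distal convoluted tubule, was at 268, 362 and 244 TPM against 194 and 231 TPM (limma adjusted p = 0.608). Sgk1 was higher and both Wnk genes lower without overlap, as were 10.5% and 15.6% of all tested genes, and these genes were named for the smallest p in their list.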

How the data were processed

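RNA of whole kidneys was purified with the RNeasy mini kit, and libraries of poly(A) RNA followed TruSeq chemistry, per the labels' protocols. The authors deposited TPM per gene for each library. Build mm10, RSEM 1.3.1, STAR 2.2.1, Bismark 0.19.1 and Trim Galore 0.5.0 appear in the submitters' processing notes, without roles. The annotation release, settings and strand were not given in the sources used here. Since TPM hold no read number, counting intervals are not given, and a value of 0 can be a failed estimate.

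Symbols were found for 52480 of 54146 identifiers (96.9%), and positions and start site windows come from RefSeq GRCm38.p6. Groups came from sample titles. The test was limma 3.58.1 (R 4.3.3) on log2(TPM + 1), two-sided and with a variance trend, over 13963 genes whose mean reached 1 TPM. Fold changes are on this scale and understate changes of low genes. The method was tested on simulated data drawn from the variance model fitted to these libraries. All simulated libraries were of equal quality, so the simulation cannot check the method for a library such as KspCre DKO replicate 2. Genes named were the channel genes, up to 4 of smallest p in each family, transport and regulator list, segment anchors, and the nearest profiles. Slc4a4 and Cdh16 were added after their values were seen, and Elf5, Aqp3, Scnn1b and Scnn1g were named outside this rule. An item under this rule is not reported here. Anchors without a match (Acta2, Csf1r) are not analysed here. The channel genes and lists were chosen with earlier results of these data known. Alternatives were pseudocounts of 0.1 and 5, filters, scalings, variance models, library weights, a replicate block and each library left out.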

Additional observations from a re-analysis of the deposited data

How the results depend on the processing

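None of the 8 tested channel genes was called in the main analysis or in any of 16 alternatives (limma). Nor were any of the 23 other potassium channel genes that an alternative held, which were 2 with a mean of at least 5 TPM, 21 to 23 with 1 library left out and 23 in the rest. The lowest adjusted p of the 8 was 0.0595, for Kcnj1 and Kcnj16 without KspCre DKO replicate 1. Kcnj1, Kcnj10, Kcnk1 and Kcnk5 kept their direction in all 16. Without KspCre DKO replicate 2 the direction turned for Kcnj15 (0.86), Kcnj16 (0.05), Kcne1 (−0.41), Kcnq1 (0.16) and Kcne1l (0.64), and leaving out replicate 1 turned Slc34a1 (−0.41) and Slc4a4 (−1.05). Over all libraries left out in turn, the log2 fold change ran from −1.36 to 0.86 for Kcnj15, −1.07 to 0.05 for Kcnj16, −0.41 to 0.89 for Kcne1, −0.37 to 0.16 for Kcnq1, −1.73 to 0.64 for Kcne1l, −0.41 to 1.06 for Slc34a1 and −1.05 to 1.52 for Slc4a4. Kcnq1 was at 0.00054 without mitochondrially encoded genes. The cause was not tested.

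Calls over all genes, 14 higher and 9 lower, were 7 higher with a pseudocount of 0.1, 28 higher with 5, 3 and 1 without a filter, 6 and 3 without trend, and 3 and 2 with array weights. They were 24 higher with median-of-ratios scaling, 35 with quantile normalization and 26 without mitochondrially encoded genes. Leaving out 1 library gave 3 to 90 higher and 3 to 470 lower: 45 and 14 (control replicate 1 left out), 7 and 3 (control replicate 2), 5 and 3 (control replicate 3), 90 and 470 (KspCre DKO replicate 1) and 3 and 3 (KspCre DKO replicate 2). The last pair hold 1 KspCre DKO library, taken to vary like the controls.

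With the replicate block the count was 47 higher and 28 lower, with no channel gene called. Deviations of same-numbered libraries correlated at 0.0926 and 0.0281 across genes. The deviations of the KspCre DKO libraries from their mean mirror each other, so these values cannot show whether same-numbered libraries share more than a number. The median of distal convoluted and connecting tubule markers, −0.47, was −0.61 with the block, −0.36 with a pseudocount of 5, −0.37 with median-of-ratios scaling, −0.39 with quantile normalization and −0.38 without mitochondrially encoded genes, and −0.61 to −0.35 with 1 control library left out. The thick ascending limb median was −1.04 with quantile normalization. The median of the other potassium channel genes was 0.31 with a mean of at least 5 TPM. With 1 library left out, medians ran from −0.32 to −0.02 for these genes, −0.5 to −0.21 for transporters, −0.38 to 0.04 for regulators, −0.46 to 0.61 for proximal tubule markers and −1.6 to −1.03 for thick ascending limb markers.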
